A study of Homo sapiens with 6 samples.

Results

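EGFR, 4 genes for its ligands (HBEGF, AREG, EREG and TGFA) and 5 genes for feedback on receptor and ERK signalling (DUSP4, DUSP6, SPRY2, SPRY4 and ERRFI1) were followed in SCC25, a long-established human line of tongue squamous carcinoma cells. They make up 10 of the 26524 genes in the count table, and each has 1 row there. The genes were selected by name, from a list drawn up with the differences between shLIS1 and control in these same libraries already known. Their differences are therefore given as a description, with no test. Messenger RNA was sequenced from 3 shLIS1 libraries, made from cells with a short hairpin against LIS1 (the product of PAFAH1B1, a regulator of the dynein motor), and from 3 control libraries. The labels give the hairpin samples as a knockdown, while the design text calls them a knockout. All 6 samples carry the same batch number in the labels. Whether control cells received any hairpin, whether the 3 shLIS1 samples share 1 hairpin, and whether the samples were separate cultures is not given there, so p-values measure only the spread between these samples, which may be technical.

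EGFR is a receptor tyrosine kinase of the plasma membrane that is abundant in squamous epithelium and in carcinomas that arise from it. Its ligands are made as membrane-anchored precursors that proteases cut at the cell surface, and binding of the freed domain switches on the Ras, RAF, MEK and ERK kinases in turn. Active ERK raises transcription of its own inhibitors: DUSP phosphatases that strip phosphate from ERK, Sprouty proteins that act upstream in the cascade, and ERRFI1, which binds the receptor kinase directly. HBEGF, AREG and EREG transcripts are themselves known to be inducible by ERK signalling.

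The promoters of 4 of these genes are shown because AREG and EREG are neighbours on 1 chromosome and HBEGF and DUSP6 had the largest differences between groups. Each window runs from 250 bases before to 50 bases after the transcript start and is taken from RefSeq (GRCh38.p14). DUSP4 was left out of the search, so windows were taken for 9 of the genes here. For each gene only the window nearest to its start in the count table was searched. EGFR and TGFA had 2 windows each and SPRY2 had 3. For SPRY4 and TGFA the transcript start of the window lay 2208 and 367 bases from the start in the count table. Capitals mark matches on either strand to 4 motifs: the cyclic AMP response element TGACGTCA, the AP-1 motif TGANTCA, the ETS core CCGGAA and the TATA motif TATAAA.
AREG (chr4:74444886-74445185, plus strand): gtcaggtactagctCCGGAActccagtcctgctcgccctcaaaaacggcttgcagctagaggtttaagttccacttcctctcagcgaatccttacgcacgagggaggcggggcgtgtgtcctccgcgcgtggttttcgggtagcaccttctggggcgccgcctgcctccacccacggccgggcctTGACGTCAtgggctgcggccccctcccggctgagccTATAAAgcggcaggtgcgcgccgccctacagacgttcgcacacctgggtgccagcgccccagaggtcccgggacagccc
EREG (chr4:74364895-74365194, plus strand): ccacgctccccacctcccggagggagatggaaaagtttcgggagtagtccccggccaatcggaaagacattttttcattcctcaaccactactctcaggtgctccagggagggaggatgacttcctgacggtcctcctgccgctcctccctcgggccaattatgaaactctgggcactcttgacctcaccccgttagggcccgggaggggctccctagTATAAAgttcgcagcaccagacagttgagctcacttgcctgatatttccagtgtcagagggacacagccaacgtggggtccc
HBEGF (chr5:140346554-140346853, minus strand): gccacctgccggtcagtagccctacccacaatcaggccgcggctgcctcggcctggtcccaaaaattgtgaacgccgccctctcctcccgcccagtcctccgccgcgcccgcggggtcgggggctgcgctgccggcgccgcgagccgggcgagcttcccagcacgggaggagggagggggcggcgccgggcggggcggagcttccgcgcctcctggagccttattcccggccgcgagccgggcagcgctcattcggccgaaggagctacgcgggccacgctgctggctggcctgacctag
DUSP6 (chr12:89352452-89352751, minus strand): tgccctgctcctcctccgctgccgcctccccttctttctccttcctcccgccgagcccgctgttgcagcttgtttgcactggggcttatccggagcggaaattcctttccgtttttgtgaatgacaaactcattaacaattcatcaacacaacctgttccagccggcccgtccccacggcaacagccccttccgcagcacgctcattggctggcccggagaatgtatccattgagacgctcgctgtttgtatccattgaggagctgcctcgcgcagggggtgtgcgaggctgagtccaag

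The AREG window held the cyclic AMP response element at position -65, an ETS core at -236 and a TATA motif at -29, each given by the first base of the match with the transcript start as 0. The EREG window held the TATA motif at -32 and no other match, and the HBEGF and DUSP6 windows held none. Among the 9 windows, the cyclic AMP response element was in 1, the AP-1 motif in 0, the ETS core in 2 (AREG and SPRY2) and the TATA motif in 2. Over 34796 distinct RefSeq windows of the same length the shares were 1.84% for the cyclic AMP response element, 7.73% for the AP-1 motif, 17.2% for the ETS core and 11.6% for the TATA motif. None of the matches printed overlap each other. The motifs were chosen after the AREG window had been seen, and a match describes letters only. EREG and AREG lie on the plus strand of chromosome 4 with 56386 bases between them.

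Total counts ranged between 17674881 and 22790599 in shLIS1 libraries and between 15661916 and 20549728 in control libraries. PAFAH1B1 was at 111 ± 2.17 CPM in shLIS1 libraries and 159 ± 5.56 CPM in control libraries (SD, n = 3 each), where CPM is the count scaled to a common sequencing depth with TMM library sizes. It fell by 0.52 on the log2 scale (edgeR quasi-likelihood test, adjusted p = 6.5e-08) and was lower in 3 of 3 shLIS1 libraries. Squamous markers were abundant, with all 7 on the list passing the filter on low counts and summing to between 10074 and 10873 CPM in shLIS1 and between 11444 and 11628 CPM in control libraries. The 7 differed in direction. KRT5, KRT14 and TP63 had log2 fold changes, shLIS1 over control, of -0.26, -0.50 and -0.14. Those of KRT6A, CDH1, ITGB4 and DSG3 were 0.27, 0.16, 0.13 and 0.49. Of the 4 endothelial markers, 3 were in the table. They summed to between 7.15 and 8.54 CPM in shLIS1 and between 12.8 and 17.1 CPM in control libraries, most of it from CDH5. VWF was at 1.10 ± 0.496 CPM in shLIS1 and 1.76 ± 0.434 CPM in control libraries, and PECAM1 at 0.166 ± 0.249 CPM in shLIS1 and 0.120 ± 0.109 CPM in control libraries (SD, n = 3 each). The 6 fibroblast markers summed to between 13.3 and 15.8 CPM in shLIS1 and between 17.1 and 21.9 CPM in control libraries, and the 3 of 5 leukocyte markers in the table summed to at most 0.303 CPM in shLIS1 and 0.196 CPM in control libraries. Of the fibroblast markers tested, LUM had a log2 fold change of 0.33 (SE 0.19), and COL1A1, COL1A2 and PDGFRB of -0.50, -0.97 and -1.02. The part of these marker genes in the differences below was not tested.

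The level of 9 of the 10 genes was higher in every shLIS1 library than in every control library, and SPRY2 alone overlapped. Over all 14964 genes tested, 27.1% were separated in that direction. Since the genes were named with this contrast in view, the count says nothing beyond the values themselves. In bulk RNA, more cells that express a gene and more RNA per cell cannot be told apart. The log2 fold changes of the 10 genes, all shLIS1 over control, lay between 0.04 and 1.23 with a median of 0.78, against a median of -0.01 over all genes tested.

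**Figure D1:**
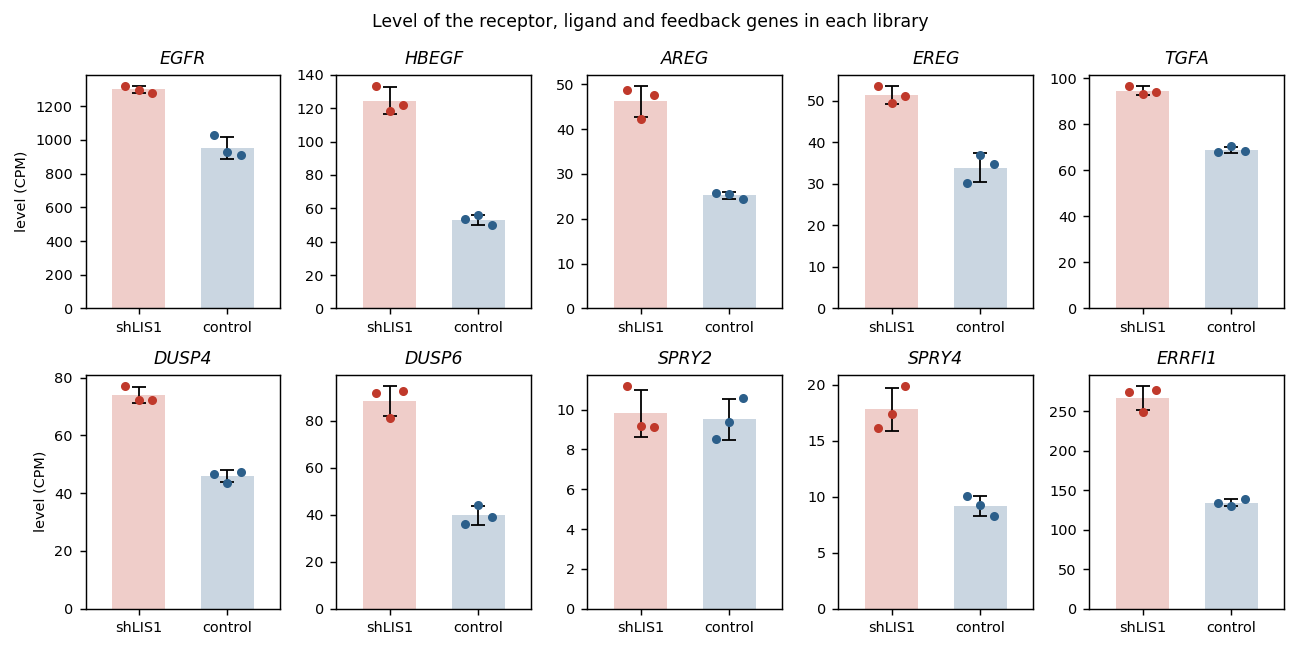
Level of each of the 10 genes in CPM (vertical axis, from 0, a scale of its own in each panel) in 3 shLIS1 and 3 control libraries. Points are libraries, bars are means and whiskers are SD; the shLIS1 points lie above the control points in every panel except SPRY2.

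Per unit of transcript length, the receptor had the highest level of the set. EGFR (ENSG00000146648, chromosome 7, 55019017 to 55211628, plus strand, build hg38) was at 1322, 1298 and 1281 CPM in shLIS1 libraries 1 to 3, against 1029, 926 and 908 CPM in control libraries 1 to 3. The lowest shLIS1 library was above the highest control library, and control library 1 stood above the other 2 controls. The means were 1300.4 ± 20.7 CPM in shLIS1 and 954 ± 65.1 CPM in control libraries (SD, n = 3 each), and the log2 fold change was 0.45 (SE 0.05). In counts, EGFR had between 22945 and 29556 reads in shLIS1 and between 16038 and 18632 reads in control libraries. Other ERBB receptor genes did not pass the test. ERBB2 had a log2 fold change of -0.11 (SE 0.07) and ERBB3, whose product has little kinase activity of its own, of 0.13 (SE 0.07), with edgeR adjusted p-values of 0.19 and 0.153. ERBB4 did not pass the filter on low counts.

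Among the ligand genes, HBEGF differed most. HBEGF encodes heparin-binding EGF-like growth factor, a ligand of EGFR and ERBB4 (ENSG00000113070, chromosome 5, 140332843 to 140346603, minus strand). It was at 134, 118 and 122 CPM in shLIS1 libraries 1 to 3, against 53.4, 56.0 and 49.9 CPM in control libraries 1 to 3. Every shLIS1 library was far above every control library. The log2 fold change was 1.23 (SE 0.06), the largest of the 10 genes, and 2.01% of all genes tested had a larger one. Its promoter window, printed above, matched none of the motifs searched.

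AREG encodes amphiregulin, an autocrine growth factor of keratinocytes (ENSG00000109321, chromosome 4, 74445136 to 74455005, plus strand). It was at 48.8, 42.1 and 47.5 CPM in shLIS1 libraries 1 to 3, against 25.8, 25.5 and 24.4 CPM in control libraries 1 to 3. The control libraries lay close together, while shLIS1 library 2 was below the other 2 of its group. The log2 fold change was 0.87 (SE 0.08). Its neighbour EREG, which encodes epiregulin (ENSG00000124882, chromosome 4, 74365145 to 74388749, plus strand), was at 53.6, 49.4 and 51.0 CPM in shLIS1 libraries 1 to 3, against 30.1, 36.9 and 34.8 CPM in control libraries 1 to 3. Control library 1 was the lowest, and without it the log2 fold change of 0.59 (SE 0.08) was 0.51. The difference was thus smaller than that of AREG in these libraries, and no test was made between the 2 genes.

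TGFA encodes transforming growth factor alpha, which like AREG binds EGFR alone among the ERBB receptors (ENSG00000163235, chromosome 2, 70447284 to 70554193, minus strand). It was at 96.7, 93.0 and 93.9 CPM in shLIS1 libraries 1 to 3, against 68.1, 70.3 and 68.1 CPM in control libraries 1 to 3. Both groups were tight, and the groups did not overlap. The log2 fold change was 0.46 (SE 0.05), close to that of EGFR.

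Levels of different genes were compared per kilobase of the longest GENCODE release 29 transcript. The 4 ligand genes together were at 122 ± 6.77 CPM per kilobase in shLIS1 and 65.9 ± 2.24 CPM per kilobase in control libraries (SD, n = 3 each). Relative to EGFR, their summed level per kilobase was 0.925 ± 0.0435 in shLIS1 and 0.681 ± 0.0503 in control libraries (SD, n = 3 each). HBEGF made up 42.6% ± 0.759 of the ligand total in shLIS1 and 33.7% ± 0.903 in control libraries, while TGFA made up 17.9% ± 0.649 in shLIS1 and 24.2% ± 0.442 in control libraries (SD, n = 3 each). AREG held nearly the same share, 30.4% ± 1.00 in shLIS1 and 30.9% ± 0.860 in control libraries, and EREG held 9.08% ± 0.134 in shLIS1 and 11.1% ± 1.04 in control libraries (SD, n = 3 each). The mix of ligand transcripts held more HBEGF and less TGFA in every shLIS1 library than in every control library.

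**Figure D2:**
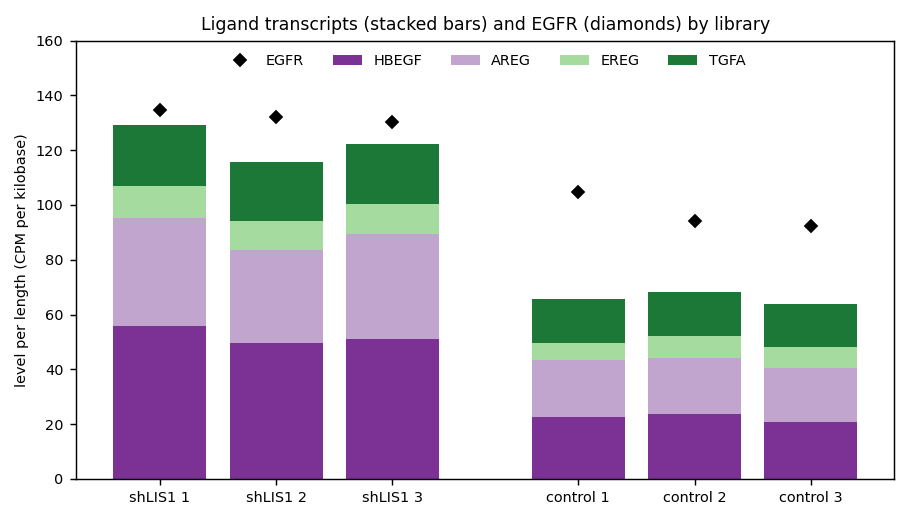
Summed level of the 4 ligand genes (stacked bars) and level of EGFR (diamonds) in CPM per kilobase (vertical axis, from 0) in each of 3 shLIS1 and 3 control libraries. The ligand total lies between 116 and 129 in shLIS1 libraries and between 63.9 and 68.3 in control libraries, and in every library it is below EGFR.

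Of the other EGF-family ligand genes tested, NRG1, a ligand of ERBB3 and ERBB4, was the only one with a mean above 3 CPM. It was at 224 ± 6.58 CPM in shLIS1 and 230.2 ± 21.1 CPM in control libraries (SD, n = 3 each), and its log2 difference was -0.04 (SE 0.06). EGF itself had a log2 fold change of -0.48 (SE 0.22), BTC, the gene of betacellulin, of 0.05 (SE 0.23) and NRG2 of 0.07 (SE 0.29). EPGN and NRG4 did not pass the filter on low counts. Of the 10 genes listed as other ERBB receptors and EGF-family ligands, 6 were tested and edgeR called 0 at an adjusted p below 0.05, DESeq2 called 0, and 1 had an unadjusted p below 0.05. Leaving out control library 1 gave 2 listed genes called higher, ERBB3 and a gene outside these 6, and 1 called lower, NRG1. Leaving out shLIS1 library 3 gave 1 called higher, also from outside the 6. Such genes came in because the filter on low counts was applied anew in each fit. With an offset for transcript length and GC content, described further on, EGF (-0.67) and NRG1 (-0.27) were called lower. Over all genes tested, 23.5% were called higher and 24.9% lower.

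DUSP6 and DUSP4 were both higher in every shLIS1 library. DUSP6 encodes a cytoplasmic phosphatase specific for ERK whose transcript is widely used as a readout of ERK activity (ENSG00000139318, chromosome 12, 89347235 to 89352501, minus strand). It was at 91.6, 81.2 and 92.4 CPM in shLIS1 libraries 1 to 3, against 35.9, 44.1 and 39.1 CPM in control libraries 1 to 3. The groups were far apart, with a log2 fold change of 1.15 (SE 0.08), and 2.45% of all genes tested had a larger one. DUSP4 encodes a nuclear phosphatase of ERK and other MAP kinases (ENSG00000120875, chromosome 8, 29333064 to 29350684, minus strand). It was at 77.1, 72.3 and 72.2 CPM in shLIS1 libraries 1 to 3, against 46.8, 43.7 and 47.3 CPM in control libraries 1 to 3. The log2 fold change was 0.69 (SE 0.06), below that of DUSP6.

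The 2 Sprouty genes had unlike values. Sprouty proteins are inhibitors of growth factor signalling to ERK. SPRY4 (ENSG00000187678, chromosome 5, 142310427 to 142326455, minus strand) was at 16.2, 17.4 and 19.9 CPM in shLIS1 libraries 1 to 3, against 10.1, 9.24 and 8.30 CPM in control libraries 1 to 3, with a log2 fold change of 0.96 (SE 0.11). The groups were apart, with shLIS1 library 3 the highest. SPRY2 (ENSG00000136158, chromosome 13, 80335976 to 80341126, minus strand) was at 11.2, 9.16 and 9.10 CPM in shLIS1 libraries 1 to 3, against 8.53, 9.39 and 10.6 CPM in control libraries 1 to 3. The 2 groups overlapped, and the log2 fold change of 0.04 (SE 0.12) was smaller than its error. It took the other sign without shLIS1 library 1 (-0.06) and without control library 1 (-0.03). SPRY2 had between 162 and 241 reads in shLIS1 and between 133 and 216 reads in control libraries. SPRY4 had between 307 and 459 reads in shLIS1 and between 157 and 186 reads in control libraries, and these 2 genes had the fewest reads of the set.

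ERRFI1 encodes MIG6, an adaptor that blocks the EGFR kinase domain and promotes receptor degradation (ENSG00000116285, chromosome 1, 8004404 to 8026309, minus strand). It was at 275, 249 and 277 CPM in shLIS1 libraries 1 to 3, against 134, 130.3 and 139 CPM in control libraries 1 to 3. The means were 267 ± 15.4 CPM in shLIS1 and 135 ± 4.48 CPM in control libraries (SD, n = 3 each), and the log2 fold change was 0.99 (SE 0.06). Per kilobase it was second to EGFR in both groups, at 86.0 ± 4.97 in shLIS1 and 43.4 ± 1.44 in control libraries (SD, n = 3 each).

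Per kilobase, the 10 genes had the same order in both groups: EGFR, ERRFI1, HBEGF, AREG, TGFA, DUSP6, DUSP4, EREG, SPRY2 and SPRY4. EGFR was at 132 ± 2.11 in shLIS1 and 97.2 ± 6.63 in control libraries, and SPRY4, the lowest, at 3.61 ± 0.387 in shLIS1 and 1.86 ± 0.180 in control libraries, all in CPM per kilobase (SD, n = 3 each). In shLIS1 libraries SPRY2 and SPRY4 had overlapping ranges. In control libraries DUSP6 overlapped DUSP4, and DUSP4 overlapped EREG. The coefficient of variation between libraries of a group was between 1.59% and 12.1% over the 10 genes. All 10 were below their group mean log2 level in shLIS1 library 2, with deviations between -0.13 and -0.0027, and 9 were above it in shLIS1 library 1. For every gene but SPRY2 these deviations were smaller than the difference between groups.

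Differences in this series followed transcript composition. With genes split into quintiles, the median log2 fold change was 0.28 at the lowest GC content and -0.28 at the highest, and -0.19 for the shortest transcripts and 0.18 for the longest. The trend was entered as an offset, smoothed over transcript length and GC content in each library. With it, EREG, whose transcript has the lowest GC content of the 10 at 36.1%, kept 34.7% of its log2 fold change, at 0.21 (SE 0.07). EGFR, with the longest transcript at 9821 bases, kept 65.5%, at 0.29 (SE 0.04), and TGFA 71.7%, at 0.33 (SE 0.05). Of the other 7, SPRY2 kept 81.3%, but its values of 0.04 without and 0.03 with the offset were smaller than their errors (SE 0.12). The rest kept between 86.0% and 105% of theirs. HBEGF was at 1.29 (SE 0.06), DUSP6 at 1.04 (SE 0.07), SPRY4 at 0.98 (SE 0.11), AREG and ERRFI1 both at 0.85 and DUSP4 at 0.68. All 10 remained positive. The share of counts on the mitochondrial genome also differed, between 7.45% and 7.68% in shLIS1 and between 5.46% and 6.15% in control libraries, and its part in these differences was not tested.

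**Figure D3:**
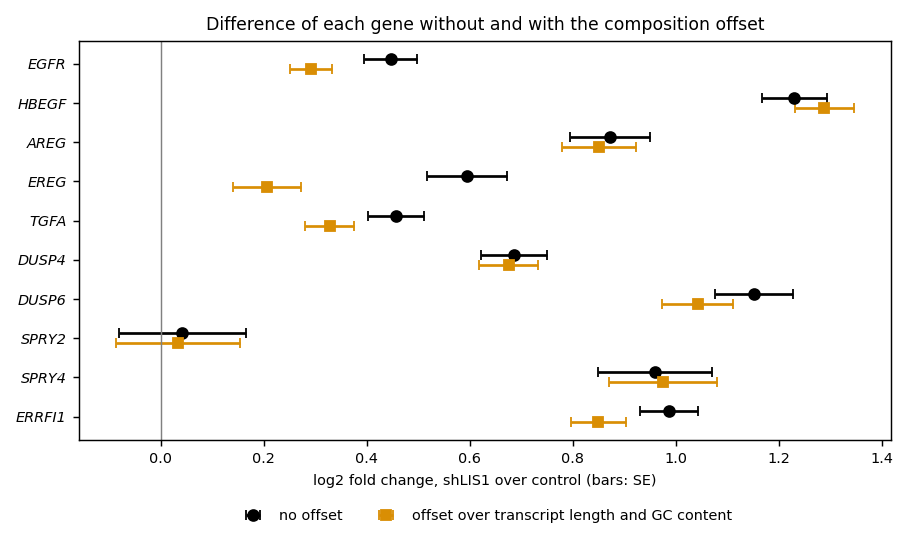
Log2 fold change of each of the 10 genes, shLIS1 over control (horizontal axis), without an offset (circles) and with the length and GC offset (squares). Bars are standard errors; EREG is at 0.21 with the offset, against 0.59 without it, and SPRY2 lies at 0 within its error in both.

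Genes around the pathway were counted in 5 lists assembled by role, with calls from the edgeR quasi-likelihood test adjusted over all genes (Benjamini-Hochberg). The lists were written with earlier results of these data known and are no independent evidence of a direction, the ERK output list above all, since some of its early response genes were already known to differ. Among 26 other ERK feedback and output genes, 25 were tested, 14 rose, 2 fell and 9 did not pass, where 23.5% of all genes tested were called higher and 24.9% lower. The median log2 fold change was 0.30. The rises with the smallest p were TRIB1, a pseudokinase gene, at 1.02 on the log2 scale (SE 0.09, adjusted p = 1.5e-08), the nuclear ERK phosphatase gene DUSP5 with 0.77 (SE 0.09, adjusted p = 4.7e-07) and the growth regulator MYC with 0.43 (SE 0.06, adjusted p = 3.8e-06). EGR1, an early transcription factor gene downstream of ERK, was named after its values were seen. It was at 156, 110.4 and 118 CPM in shLIS1 libraries 1 to 3, against 42.5, 40.3 and 43.2 CPM in control libraries 1 to 3. Its log2 difference was 1.61 (SE 0.13, adjusted p = 5.3e-05), more than any of the 10 genes above. With the offset 14 of the list were again higher, 12 of them the same genes, with TRIB1 at 1.06, DUSP5 at 0.94, MYC at 0.56 and EGR1 at 1.73.

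The ERK phosphatase genes did not all go one way. Of 5 others in that list, DUSP1, DUSP5 and DUSP7 rose, DUSP2 did not pass (log2 fold change 0.24, adjusted p = 0.221) and DUSP9 fell. With the offset DUSP2 was called higher, at 0.61 (edgeR adjusted p = 0.00284). DUSP9, which encodes another cytoplasmic ERK phosphatase, was at 8.91, 11.8 and 10.9 CPM in shLIS1 libraries 1 to 3, against 24.6, 18.9 and 21.9 CPM in control libraries 1 to 3. Every shLIS1 library was below every control library. The log2 difference was -1.05 (SE 0.11, edgeR adjusted p = 3.7e-07), and -0.71 with the offset. The other gene that fell was ERF, a repressor that ERK inactivates (log2 difference -0.28, SE 0.07, adjusted p = 0.00144). It was at 0.016 with the offset, where the call was lost. ETV4 and ETV5, ETS factors of the FGF and ERK response, did not pass, with log2 fold changes of 0.13 and 0.20 and adjusted p-values of 0.19 and 0.0632. With the offset ETV4 was called higher, at 0.41 (edgeR adjusted p = 0.000219). CCND1, the cyclin D1 gene, also did not pass without it, with 0.13 (adjusted p = 0.061). ETV1 did not pass without the offset (-0.08, edgeR adjusted p = 0.741) and was called lower with it (-0.51, adjusted p = 0.0252). The rises of SPRED1 (0.44) and PHLDA1 (0.22) were lost with the offset, at 0.011 and -0.02.

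The cascade itself, with its adaptors, exchange factors, kinases and transcription factors, held calls in both directions. Of 28 genes of the Ras and ERK cascade, 12 rose, 10 fell and 6 did not pass, against 23.5% called higher and 24.9% lower over all genes, with a median log2 fold change of 0.04. Smallest in p among the rises were the Ras inhibitor NF1 (0.59, SE 0.05, adjusted p = 1.8e-08), the phosphatase PTPN11 (0.54, SE 0.06, adjusted p = 1.4e-07) and the exchange factor SOS1 (0.66, SE 0.07, adjusted p = 2.5e-07). The falls with the smallest p were MAP2K2, which encodes MEK2 (-0.43, SE 0.05, adjusted p = 5.2e-07), HRAS (-0.44, SE 0.06, adjusted p = 2.6e-06) and the ERK-activated kinase gene RPS6KA1 (-0.40, SE 0.05, adjusted p = 4.2e-06). MAPK3, which encodes an ERK kinase, fell (-0.60, SE 0.09, adjusted p = 8.5e-06). With the offset 7 were called higher and 9 lower, of which 7 and 5 had the same call without it. The calls of MAP2K2 (-0.05) and HRAS (-0.07) were lost, and NF1, PTPN11 and SOS1 were at 0.19, 0.25 and 0.19.

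Genes for ligand shedding were called about as often as genes in general. Of 15 tested, 4 rose, 4 fell and 7 did not pass, against 23.5% called higher and 24.9% lower over all genes, with a median log2 fold change of -0.07. ADAM17, the main protease that releases HBEGF, AREG, EREG and TGFA, rose by 0.29 on the log2 scale (SE 0.07, adjusted p = 0.00108). ADAM10, which releases EGF and BTC, rose with 0.53 (SE 0.06, adjusted p = 1.2e-07), and NRDC, a cofactor of shedding, with 0.24 (SE 0.06, adjusted p = 0.00127). With the offset these rises were lost, with 0 of the 4 called, and ADAM17, ADAM10 and NRDC were at 0.06, 0.04 and 0.11. The offset gave 3 other genes called higher: ADAM8 at 0.38, RHBDF2 at 0.30 and FRMD8 at 0.15. TIMP3 did not pass without the offset (-0.40, edgeR adjusted p = 0.0586) and was called lower with it (-0.47, adjusted p = 0.0273). All 4 falls found without the offset were also called with it. They included the metalloproteinase gene ADAM15 (-0.63, SE 0.05, adjusted p = 1.1e-08), the rhomboid protease gene RHBDL2 (-0.72, SE 0.12, adjusted p = 4.3e-05) and the cargo receptor gene CNIH4 (-0.29, SE 0.06, adjusted p = 0.000671).

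Of 22 genes for downregulation and endocytosis of EGFR, 9 rose, 3 fell and 10 did not pass, against 23.5% called higher and 24.9% lower over all genes, and the median log2 fold change was -0.04. SOCS4, a suppressor of EGFR signalling, rose with 0.83 (SE 0.07, adjusted p = 1.4e-08), the endocytic adaptor CD2AP with 0.65 (SE 0.08, adjusted p = 1.6e-05) and the deubiquitinase USP8 with 0.56 (SE 0.07, adjusted p = 1.5e-06). The 3 that fell were the endocytic adaptor EPN1 (-0.41, SE 0.05, adjusted p = 1.4e-06), the ubiquitin ligase CBLC (-0.45, SE 0.07, adjusted p = 1.9e-05) and the phosphatase PTPN1 (-0.15, SE 0.05, adjusted p = 0.0228). With the offset 3 were called higher and 7 lower, of which 2 and 2 had the same call without it. STAM2, an endosomal sorting gene, rose without the offset (0.26, edgeR adjusted p = 0.00685) and was called lower with it (-0.17, adjusted p = 0.0446). With the offset SOCS4 was at 0.34 and CD2AP at 0.24, and the calls of USP8 (0.08) and CBLC (-0.07) were lost. PTPN1 was still called lower with the offset (-0.19, edgeR adjusted p = 0.00216). Its call was lost with DESeq2, with no filter on low counts, and without shLIS1 library 2, shLIS1 library 3 or control library 3.

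**Figure D4:**
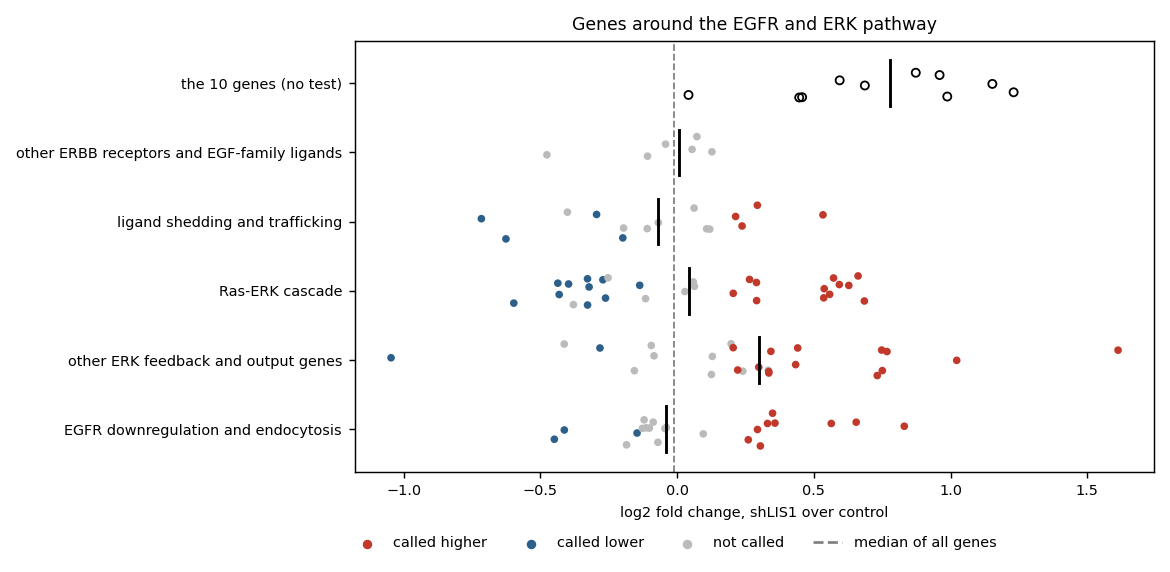
Log2 fold change, shLIS1 over control (horizontal axis), of the 10 genes (open circles, not tested) and of the tested genes in 5 lists around them. Red points were called higher, blue points lower and grey points neither; black lines are medians, which run from -0.07 for ligand shedding to 0.30 for ERK feedback and output genes, and the dashed line is the median of all genes at -0.01.

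Genes with the most similar profile over the 6 libraries were found by the Euclidean distance between centred log2 CPM values, over 10633 genes whose mean reached 5 CPM. The 10 genes of the set were left out of this search, so none of them could be returned. Nearest to EGFR were BNC1, ZCCHC2 and TUT4, at distances of 0.0607, 0.0608 and 0.0612. Nearest to DUSP6 were ZNF33A, PIBF1 and LYST, at distances of 0.0899, 0.102 and 0.138. All 6 share the libraries and therefore the difference between groups with the gene they resemble, with log2 fold changes between 0.47 and 0.48 around EGFR and between 1.10 and 1.20 around DUSP6. Of the 10, 5 overlap another gene with a row of its own, 4 of these on the opposite strand, and none of the overlapping genes had more than 31 reads in a library.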

How the data were processed

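RNA of 6 SCC25 samples was captured by its poly(A) tail and made into libraries that mark strand with dUTP, per the labels' protocols. The authors deposited raw read counts per gene for 26524 genes. The submitters' processing notes name build hg38, while the sources used here name no aligner, counter, annotation release or strand setting. Genes overlapping on opposite strands are therefore uncertain.

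Counts were tested in edgeR 4.0.16 (R 4.3.3; filterByExpr with minimum count 10 and total 15, TMM, robust glmQLFit, glmQLFTest) with group as the sole term, Benjamini-Hochberg adjustment over 14964 genes and a threshold of 0.05. Each standard error is the size of the log2 fold change divided by the root of its F value. A count of 0 allows up to 3 counts, between 0.130 and 0.192 CPM, for counting error only. Replicates were separate libraries: chi-square per gene was between 2.64 and 10.9 within groups and between 40.3 and 54.1 across them. The highest values within groups, 10.9 and 8.68, both involved control library 1, against 3.48 between control libraries 2 and 3.

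The 10 genes and the lists were chosen with earlier results of these data known. Named beside them are PAFAH1B1, all tested ERBB receptor and EGF-family genes, up to 3 rises and 3 falls with the smallest p in each other list, and the 3 genes nearest in profile to EGFR and to DUSP6. Other genes (EGR1, DUSP1, DUSP2, DUSP7, ETV1, ETV4, ETV5, SPRED1, PHLDA1, CCND1, MAPK3, ADAM8, RHBDF2, FRMD8, TIMP3, STAM2) were named after their values were seen. Some list genes are not reported here by name. Also tried were upper quartile and RLE scaling, DESeq2 1.42.0, no filter, a filter of 1 CPM in 3 libraries, a block, each library left out, and a length and GC offset (mgcv 1.9.3, basis size 6 per axis, longest GENCODE release 29 transcript, 96.8% of tested genes matched).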

Additional observations from a re-analysis of the deposited data

How the results depend on the processing

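Over the 13 alternatives the median log2 fold change of the 10 genes stayed between 0.74 and 0.82, and that of PAFAH1B1 between -0.81 (with the length and GC offset) and -0.48, past the threshold in each. SPRY2 was the only one of the 10 to change sign, between -0.064 and 0.13 on leaving out 1 library. The counts over all genes moved by less than 1.5 times, with 2571 higher and 3485 lower with the offset and 3146 higher and 4214 lower with upper quartile scaling. The offset moved list counts most: the Ras and ERK cascade had 7 called higher, the downregulation list 3 higher and 7 lower, and the other ERBB and EGF-family list 2 lower (EGF, -0.67, and NRG1, -0.27); ERF changed sign to 0.016. On leaving out 1 library, the last of these lists had between 0 and 2 called higher and between 0 and 1 lower. These counts include listed genes that passed the filter on low counts only in such a fit. The 29 named list genes include the 6 tested ERBB and EGF-family genes, which had no call to lose. Of the rest, 8 lost their call under at least 1 alternative, 7 of them with the offset. ERF, not among those 8, also lost its call with the offset. For calls lost or gained on changing the fit, the cause was not tested. Same-numbered samples did not deviate together (correlations of -0.04, 0.03 and -0.04), which does not settle whether they were prepared together. With the replicate block 3484 genes were called higher and 3682 lower, and the Ras and ERK list had 11 of each. SPRY2 and SPRY4, with the fewest reads of the 10, are the most limited by depth.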
